A study of Mus musculus with 6 samples.

Results

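The genes described here are 34 genes of glutathione, thioredoxin and peroxide defence, measured by RNA sequencing in dendritic cells grown from mouse bone marrow. They were chosen by name, with earlier results of these data known. The choice covered glutathione synthesis and transfer, the thioredoxin and peroxiredoxin system, the dismutases and catalase, and the regulator Nfe2l2 with its known targets. All 34 have a row among the 30587 rows of the deposited count table, and 33 had enough reads for a test. The exception was the transferase gene Gsta4, for which WT libraries held 2, 4 and 1 reads and KO libraries 1, 0 and 2. The series asks how the transcription factor HIF-2α, encoded by Epas1, affects the priming of glycolipid responses by dendritic cells. WT cells came from C57BL/6 mice with floxed Hif2a alleles (Hif2afl/fl, 3 libraries), and KO cells from mice of the same strain with those alleles and a CD11c-Cre transgene (CD11c-Cre;Hif2afl/fl, 3 libraries). Every culture, WT and KO, received dimethyloxalylglycine (DMOG) for 24 h and then the glycolipid α-galactosylceramide for 4 h. DMOG blocks 2-oxoglutarate-dependent enzymes, including the prolyl hydroxylases through which HIF α subunits are degraded in oxygen. No untreated culture and no control with the Cre transgene alone was analysed here, so loss of Hif2a and presence of Cre cannot be told apart. The CD11c promoter is active in dendritic cells and also in some macrophages. The labels used here give no age of the mice and do not tie the libraries to individual mice or dishes. The p-values therefore reflect only how much these libraries differ from one another, which may be technical.

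Cells remove hydrogen peroxide through linked thiol systems. Glutathione, a tripeptide made from imported cystine, is oxidised by glutathione peroxidases, joined to electrophiles by glutathione transferases and recycled by glutathione reductase. Peroxiredoxins reduce peroxide at a reactive cysteine, and are themselves reduced by thioredoxin, which thioredoxin reductase recharges with electrons from NADPH. Catalase breaks down peroxide without a thiol, and superoxide dismutases produce peroxide from superoxide. Many of these genes are activated by NRF2, the product of Nfe2l2, which binds antioxidant response elements in DNA. KEAP1 holds NRF2 in the cytosol and directs its degradation until oxidants or electrophiles modify KEAP1. In dendritic cells these systems are known for limiting damage by their own oxidants and for setting the thiol supply during maturation and antigen presentation.

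Library totals ran from 14668641 to 17884160 reads. Values are given as CPM, the usual per-library scaling of read counts, here with TMM factors. Fold changes are KO relative to WT with n = 3 libraries per genotype. The ± is the SE after a log2 fold change and the SD after a CPM value, a ratio or a share. A gene was called changed at an edgeR adjusted p under 0.05. The WT libraries held 339, 352 and 349 Epas1 reads and the KO libraries 175, 214 and 198, and the gene fell 1.97-fold (log2 fold change -0.98 ± 0.12, adjusted p = 3.45e-05). WT 2 held reads in 25408 rows, against 18763 to 22275 rows in the other libraries. Markers summed over a list of 8 dendritic cell genes ran from 3153 to 3249 CPM in WT and 3179 to 3687 CPM in KO. Of these, 3 were higher (Flt3, Zbtb46 and Ccr7), 1 was lower (the class II gene H2-Ab1, log2 fold change -0.49 ± 0.05), and Cd209a was under 1 CPM in every library. The 8 macrophage markers, also abundant, ran from 2136 to 2265 CPM in WT and 2236 to 2469 CPM in KO, with 4 of 8 higher and 0 lower. Neutrophil markers summed to 34.7 to 49.0 CPM in WT and 41.9 to 61.5 CPM in KO. Of 8 listed, 5 were tested and 2 were higher, and Ly6g, Mpo and Elane were under 1 CPM in every library. Mast cell and basophil markers summed to 50.2 to 57.5 CPM in WT and 81.8 to 89.0 CPM in KO, mostly Kit. Of 7 listed, 5 were tested and 4 were higher, and Ms4a2 and Tpsb2 were under 1 CPM. Plasmacytoid dendritic cell markers summed to 132 to 163 CPM in WT and 318 to 330 CPM in KO, mostly the interferon-inducible Bst2. Of 5 listed, 3 were tested and 2 were higher, and Siglech and Ccr9 were under 1 CPM. Stromal markers summed to at most 7.39 CPM in any library, with 1 higher and 1 lower of 2 tested among 6 listed. Over all genes tested, 13.8% were called higher and 12.0% lower. All 5 erythroid markers in the table, and all 5 of T, B and NK cells, were under 1 CPM in every library. The part that the dendritic cell, macrophage, neutrophil, mast cell, plasmacytoid and stromal markers play in the results below was not tested. In bulk samples fewer cells of a type and less RNA per cell cannot be told apart.

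The chosen members fell more often than they rose in KO. Of the 33 tested members, 17 fell and 4 rose, which is 51.5% lower and 12.1% higher. Over all 13249 genes tested, 12.0% were called lower and 13.8% higher (25.8% in either direction). The share of members that rose was thus close to the background and the share that fell was above it. The members were chosen with earlier results of these data known, so this contrast is a description and not a test. The median log2 fold change of the members was -0.25, against -0.01 over all tested genes. The decreases were led by the transferase gene Gsta3 at 4.73-fold, followed by Gclm at 1.91-fold, Cat at 1.82-fold, Mgst3 at 1.74-fold, Prdx1 at 1.67-fold, Gstm1 at 1.65-fold and Mgst1 at 1.53-fold. The genes that rose were Prdx2 at 1.59-fold, Keap1 at 1.27-fold, Txn2 at 1.26-fold and Glrx at 1.22-fold. Every KO library lay below every WT library in 20 members and above it in 4, whereas 9 overlapped. Over all tested genes the KO libraries lay below in 20.0% and above in 20.5%, which makes 40.4% without overlap. Without KO 3 the calls over all genes numbered 945 lower and 1182 higher, against 1586 and 1826, and without WT 1 the number lower was 1027. The members lower numbered 16 in both of these fits.

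**Figure D1:**
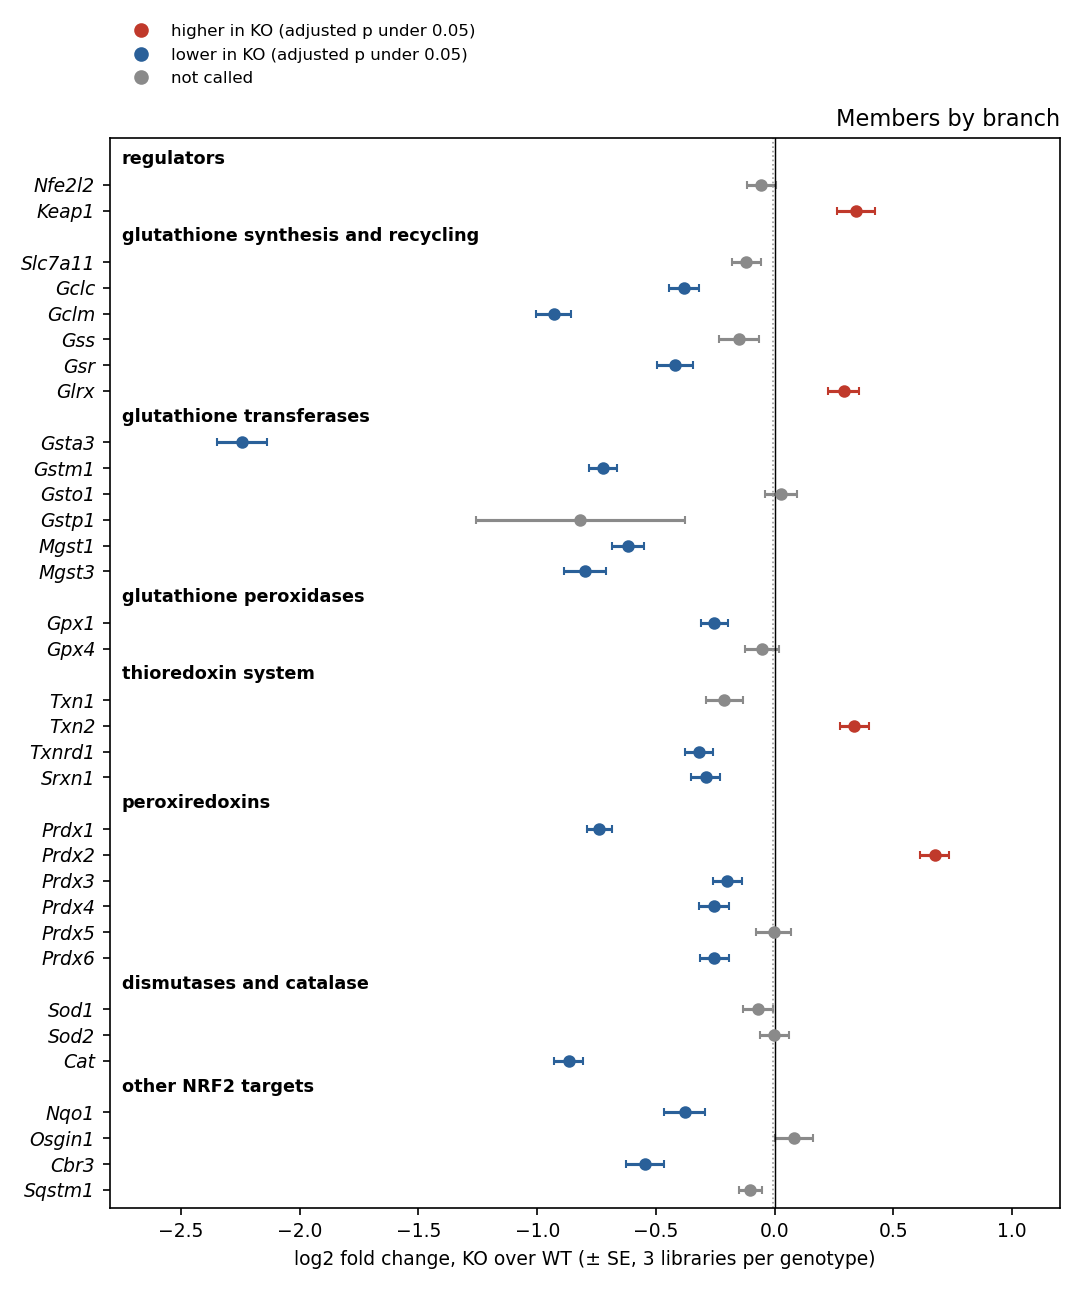
Log2 fold change (KO over WT, horizontal axis) with its SE for the 33 tested members, grouped by branch. Blue points are called lower, red points higher and grey points neither, the dotted line is the median of all tested genes, and Gsta3 lies farthest to the left at -2.24.

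**Figure D2:**
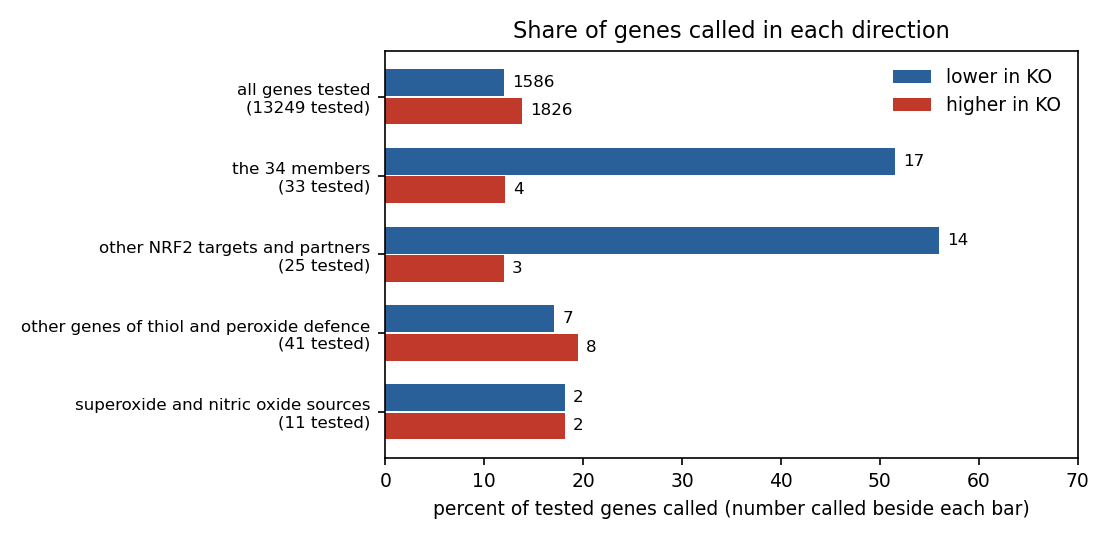
Percent of tested genes called lower (blue) and higher (red) among all 13249 genes, the members and 3 lists of further genes, with the number called beside each bar. The members and the further NRF2 targets and partners have 51.5% and 56.0% of genes lower, against 12.0% over all genes. The members and the lists were chosen with earlier results of these data known.

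The regulators came first. Nfe2l2, which encodes NRF2 (chromosome 2, 75675513 to 75704641, minus strand, mm10), had 283, 285 and 279 CPM in WT 1, 2 and 3 and 276, 273 and 265 CPM in KO 1, 2 and 3. The KO libraries lay just below the WT libraries, but the log2 fold change of -0.06 ± 0.06 did not pass (adjusted p = 0.538). Keap1, encoding the adaptor that targets NRF2 for degradation (chromosome 9, 21229730 to 21239361, minus strand), had 39.2, 40.8 and 40.6 CPM in WT and 46.2, 57.2 and 49.7 CPM in KO. All KO libraries were above all WT libraries, with KO 2 highest, and Keap1 rose by a log2 fold change of 0.34 ± 0.08 (adjusted p = 0.0069). Reads of Nfe2l2 per read of Keap1 fell outside the WT range in every KO library, from 7.02 ± 0.173 in WT to 5.36 ± 0.599 in KO (SD). This ratio and 7 other ratios and shares given below were chosen after their values were seen to be separated, so they are descriptions with no test. Keap1 shares 510 exon bases with Gm16754 on the opposite strand, which had 8 to 35 reads per library.

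Transcripts of both subunits of glutamate-cysteine ligase fell. This enzyme of the rate-limiting step of glutathione synthesis is built from a catalytic subunit encoded by Gclc and a modifier subunit encoded by Gclm. Gclm (chromosome 3, 122245557 to 122270732, plus strand) had 307, 300.2 and 289 CPM in WT 1, 2 and 3 against 173, 143 and 154 CPM in KO 1, 2 and 3, a log2 fold change of -0.93 ± 0.07 (adjusted p = 9.12e-07). Every KO library held fewer Gclm reads than any WT library, with KO 2 lowest. Gclc (chromosome 9, 77754535 to 77794485, plus strand) had 134, 119 and 116 CPM in WT and 96.4, 92.2 and 94.98 CPM in KO, a smaller decrease of -0.38 ± 0.06 in log2 (adjusted p = 0.000575). Gclm reads per Gclc read were 2.43 ± 0.125 in WT and 1.66 ± 0.125 in KO (SD), with no overlap.

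Of the other genes of glutathione synthesis and recycling, Slc7a11, Gss and Glrx moved less than either ligase subunit. Gsr fell slightly more than Gclc and less than Gclm. Slc7a11, which encodes the cystine importer subunit, had 251, 240 and 264 CPM in WT and 233, 231 and 231 CPM in KO, and its log2 fold change of -0.12 ± 0.06 did not pass (adjusted p = 0.178). Gss, for glutathione synthetase, which completes the tripeptide, averaged 21.9 ± 0.874 CPM in WT against 19.7 ± 0.739 CPM in KO (SD; adjusted p = 0.216). In both genes the KO libraries lay below the WT libraries without the difference passing the test. Gsr, encoding glutathione reductase (chromosome 8, 33652523 to 33698163, plus strand), had 241, 244 and 243 CPM in WT and 199.5, 161 and 182 CPM in KO. The WT libraries lay close together and the KO libraries were all lower and more spread, a decrease of -0.42 ± 0.08 in log2 (adjusted p = 0.00113). Glrx, encoding glutaredoxin, which removes glutathione from protein cysteines, went the other way. It had 80.6, 75.7 and 68.3 CPM in WT and 93.5, 93.0 and 88.1 CPM in KO, a rise of 0.29 ± 0.07 in log2 (adjusted p = 0.0057). Glrx was higher in each KO library than in any WT library.

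**Figure D3:**
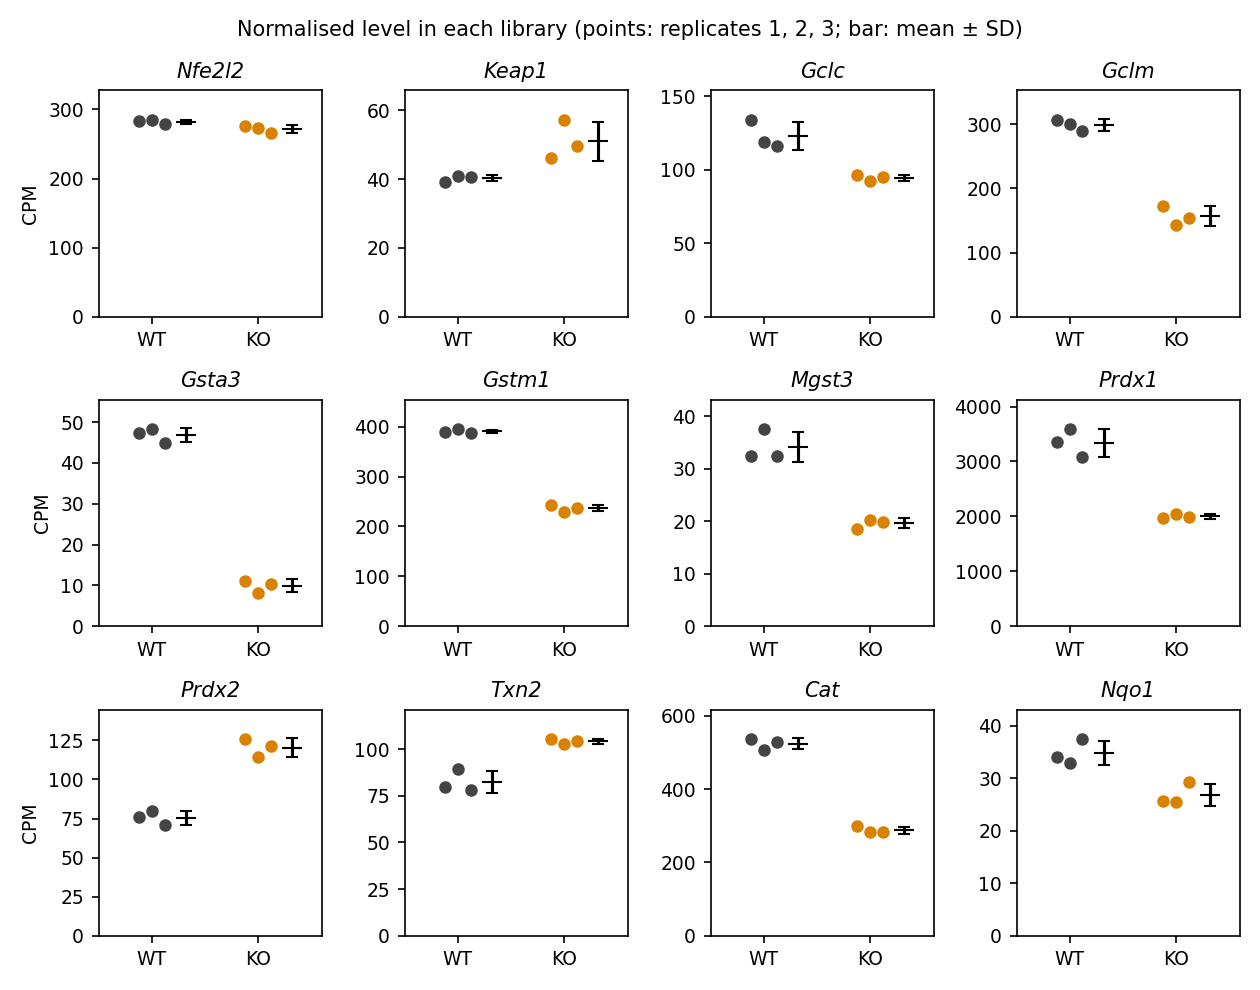
CPM (vertical axes, each from 0) of 12 members in each library, with WT points in dark grey, KO points in orange and the mean ± SD beside them. Gsta3, Gclm, Gstm1, Mgst3, Prdx1 and Cat show KO points well below WT points, Prdx2 and Txn2 show them above, and Nfe2l2 differs little.

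Among the 6 tested transferase members, whose products attach glutathione to reactive compounds, 4 fell and 0 rose, against 12.0% lower and 13.8% higher over all genes. Of 10 further transferase genes tested outside the members, grouped after their values were seen, 1 fell (Gstm2) and 1 rose, the weakly expressed Gstt1 at 0.452 ± 0.214 CPM in WT against 1.24 ± 0.154 CPM in KO (SD; log2 fold change 1.46 ± 0.40, adjusted p = 0.0159). Gsta3, an alpha class transferase (chromosome 1, 21240589 to 21265661, plus strand), had 47.3, 48.2 and 44.9 CPM in WT 1, 2 and 3 and 11.1, 8.11 and 10.4 CPM in KO 1, 2 and 3. No KO library came near a WT library, and the log2 fold change was -2.24 ± 0.11 (adjusted p = 5.71e-09). It was the only member called at 2-fold or more. Gstm1, a mu class transferase (chromosome 3, 108012255 to 108017973, minus strand), had 389, 394 and 388 CPM in WT and 242, 230 and 238 CPM in KO, a log2 fold change of -0.72 ± 0.06 (adjusted p = 1.39e-06). The replicates of each genotype lay within a narrow band for this gene.

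The membrane-bound microsomal transferase members, Mgst1 and Mgst3, both fell. Mgst2, a further microsomal transferase outside the members, was looked up after the values were seen and was not called. It averaged 22.4 ± 1.58 CPM in WT against 20.9 ± 1.76 CPM in KO (SD), with an edgeR adjusted p of 0.49. Mgst1 had 129, 136 and 114 CPM in WT and 85.0, 78.4 and 83.3 CPM in KO, a log2 fold change of -0.62 ± 0.07 (adjusted p = 1.9e-05). Mgst3, whose product also has peroxidase activity, had 32.5, 37.5 and 32.4 CPM in WT and 18.6, 20.3 and 19.9 CPM in KO, a log2 fold change of -0.80 ± 0.09 (adjusted p = 2.11e-05). In neither gene did the genotypes overlap. Gsto1, an omega class transferase that works as a thiol reductase, averaged 239 ± 11.7 CPM in WT against 244 ± 15.0 CPM in KO (SD), and its libraries overlapped (log2 fold change 0.03 ± 0.07, adjusted p = 0.813). Its share of the reads of the 7 transferase genes was 28.2% ± 0.351 in WT and 40.6% ± 0.683 in KO (SD), while the share of Gstm1 was 45.9% ± 1.68 and 39.4% ± 0.770. Gstm1 had the largest share in every WT library, whereas Gsto1 had it in KO 1 and KO 3, and in KO 2 each took 40.2%.

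Gstp1, the pi class transferase, varied too much between libraries for a call. The WT libraries held 417, 199 and 51 of its reads and the KO libraries 185, 94 and 134, or 24.7, 12.9 and 3.48 CPM against 10.1, 5.57 and 7.77 CPM. The WT libraries differed more from each other than the genotypes did (log2 fold change -0.82 ± 0.44, adjusted p = 0.198). The log2 fold change was -0.06 without WT 1 and -1.26 without WT 3, where it passed. Its transcript is 98.2% identical to Gstp2 over 707 bases, a gene with at most 2 reads in any library, so reads of these copies may have been split or dropped.

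**Figure D4:**
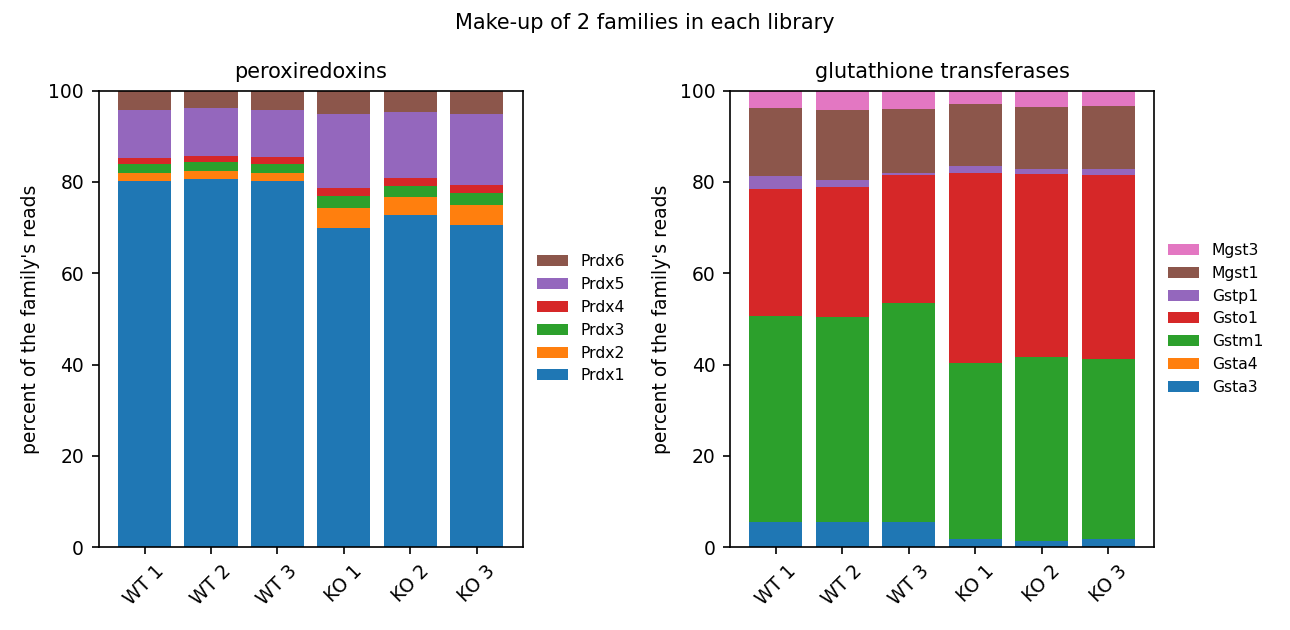
Percent of a family's reads taken by each member (vertical axis) in each of the 6 libraries, for the 6 peroxiredoxin genes and the 7 transferase genes. Prdx1 takes 80.1% to 80.6% of peroxiredoxin reads in WT and 69.8% to 72.6% in KO, and Gsto1 takes 27.8% to 28.5% of transferase reads in WT and 40.2% to 41.4% in KO.

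The cytosolic peroxiredoxins moved in opposite directions. Prdx1, the abundant cytosolic peroxiredoxin (chromosome 4, 116685544 to 116700822, plus strand), had 3353, 3582 and 3075 CPM in WT 1, 2 and 3 and 1972, 2051 and 1979 CPM in KO 1, 2 and 3. The KO libraries were all lower and closely grouped, and the log2 fold change was -0.74 ± 0.05 (adjusted p = 2.43e-07). Prdx2, encoding the other typical cytosolic peroxiredoxin (chromosome 8, 84969587 to 84974834, plus strand), had 75.8, 79.8 and 71.0 CPM in WT and 126, 114 and 121 CPM in KO. It was higher in every KO library, with a log2 fold change of 0.67 ± 0.06 (adjusted p = 2.9e-06). Prdx1 reads per Prdx2 read fell from 44.1 ± 0.797 to 16.6 ± 1.18 (SD), a log2 difference of -1.41, and the share of Prdx2 in peroxiredoxin reads was 1.82% ± 0.0276 in WT and 4.28% ± 0.212 in KO. Prdx1 nonetheless remained the main peroxiredoxin transcript, at 80.3% ± 0.278 of the family's reads in WT and 71.0% ± 1.44 in KO.

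Limits of these values come from neighbouring and similar genes. Prdx2 shares 177 exon bases with Rnaseh2a and 173 with Junb, both on the opposite strand, and Junb, looked up after the values were seen, rose by 0.47 ± 0.07 in log2 with 6655 to 12143 reads per library. As the strand setting of the counting is not given in the sources used here, reads in that stretch cannot be told apart. The stretch shared with Junb is 5.7% of the exon bases of Prdx2, and the part it plays in the rise of Prdx2 was not tested. Prdx1 is 98.3% identical over 597 bases to the pseudogene Gm21399, which had 260 to 327 reads in WT and 185 to 224 in KO, against 45089 to 56697 and 34133 to 35970 for Prdx1.

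The remaining peroxiredoxins changed little. Prdx6, the 1-cysteine form that also acts on phospholipid peroxides, averaged 169 ± 5.54 CPM in WT against 142 ± 7.60 CPM in KO (SD), a log2 fold change of -0.25 ± 0.06 (adjusted p = 0.00861). Prdx4, of the endoplasmic reticulum, had 60.2, 63.5 and 57.1 CPM in WT and 51.7, 49.2 and 50.7 CPM in KO, a decrease of -0.26 ± 0.06 in log2 (adjusted p = 0.00918). The mitochondrial Prdx3 had 78.4, 86.6 and 77.9 CPM in WT and 72.2, 67.6 and 71.6 CPM in KO, a decrease of -0.20 ± 0.06 that was the weakest call among the members (adjusted p = 0.0294). The Prdx3 log2 fold change did not pass without WT 1 (-0.22), WT 2 (-0.15), KO 2 (-0.17) or KO 3 (-0.21) and in 5 other of the 16 alternative fits, and Prdx4 did not pass without WT 2 (-0.22, adjusted p = 0.0663). Without WT 2 the peroxiredoxins that fell thus numbered 2 instead of 4, of 6 tested. Over all genes the number lower went from 1586 to 1083 in that fit. Prdx5, found in mitochondria and peroxisomes, averaged 433 ± 34.5 CPM in WT against 432 ± 23.4 CPM in KO (SD; adjusted p = 0.973). It shares 409 exon bases with Trmt112 on the opposite strand, a gene with 535 to 691 reads per library.

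In the thioredoxin system the cytosolic reductase fell and the mitochondrial thioredoxin rose. Txnrd1, encoding cytosolic thioredoxin reductase (chromosome 10, 82833951 to 82897712, plus strand), had 540, 534 and 535 CPM in WT and 442, 411 and 435 CPM in KO, a log2 fold change of -0.32 ± 0.06 (adjusted p = 0.0014). Srxn1, encoding sulfiredoxin, which restores overoxidised peroxiredoxins, had 486, 465 and 449 CPM in WT and 380.3, 379 and 387 CPM in KO, a log2 fold change of -0.29 ± 0.06 (adjusted p = 0.00335). Neither gene overlapped between genotypes. Txn2, for mitochondrial thioredoxin (chromosome 15, 77915047 to 77929006, minus strand), had 79.9, 89.4 and 78.4 CPM in WT and 106, 103 and 104 CPM in KO, a rise of 0.34 ± 0.06 in log2 (adjusted p = 0.00112). All KO libraries were above all WT libraries.

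Txn1, for the cytosolic thioredoxin, had 422, 418 and 369 CPM in WT and 376, 317 and 350 CPM in KO. KO 1 lay above WT 3, and the log2 fold change of -0.21 ± 0.08 did not pass (adjusted p = 0.0614). It passed without WT 3 (-0.26), without KO 1 (-0.27) and in 5 other alternative fits. Within each library the reads of Txn1 per read of Txn2 were 4.89 ± 0.341 in WT and 3.33 ± 0.236 in KO (SD), with no overlap.

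Among the enzymes that act on peroxide and superoxide directly, catalase fell most. Cat, encoding the peroxisomal catalase (chromosome 2, 103453849 to 103485160, minus strand), had 537, 508 and 529 CPM in WT and 299, 282 and 282 CPM in KO. The gap between the genotypes was far wider than the spread within them (log2 fold change -0.87 ± 0.06, adjusted p = 2.76e-07). Gpx1, the major cytosolic glutathione peroxidase and a selenoprotein, had 849, 909 and 823 CPM in WT and 704, 718 and 742 CPM in KO, a smaller decrease of -0.25 ± 0.06 in log2 (adjusted p = 0.0056). Gpx4, whose product reduces lipid hydroperoxides in membranes, averaged 436 ± 27.2 CPM in WT against 420 ± 30.6 CPM in KO (SD), and its libraries overlapped (log2 fold change -0.05 ± 0.07, adjusted p = 0.632). Its transcript is 99.7% identical over 733 bases to Gpx4-ps2, counted separately at 1715 to 2364 reads per library, with a log2 fold change of -0.05 ± 0.07 as well.

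The dismutases did not pass the test. Sod1, the copper and zinc enzyme of the cytosol, had 213, 223 and 199 CPM in WT and 206, 197 and 201 CPM in KO (log2 fold change -0.07 ± 0.06, adjusted p = 0.449). Sod2, the manganese enzyme of mitochondria, had 117, 117 and 113 CPM in WT and 125, 111 and 111 CPM in KO (adjusted p = 0.993), and the sign of its small difference turned in 9 alternative fits.

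Of the 4 other NRF2 targets among the members, 2 fell and 0 rose, against 12.0% lower and 13.8% higher over all genes. Nqo1, encoding a quinone reductase often used as a readout of NRF2 activity (chromosome 8, 107388225 to 107403206, minus strand), had 34.01, 32.9 and 37.4 CPM in WT and 25.5, 25.5 and 29.2 CPM in KO, a log2 fold change of -0.38 ± 0.09 (adjusted p = 0.00583). Cbr3, for a carbonyl reductase, had 32.9, 35.0 and 32.2 CPM in WT and 21.7, 23.2 and 23.8 CPM in KO, a log2 fold change of -0.55 ± 0.08 (adjusted p = 0.00025). Both were lower in each KO library than in any WT library. Osgin1, an oxidative stress induced growth inhibitor, averaged 35.5 ± 2.19 CPM in WT against 37.6 ± 2.90 CPM in KO (SD; adjusted p = 0.51). Sqstm1, encoding the autophagy receptor p62, which also binds KEAP1, had 2411, 2286 and 2137 CPM in WT and 2140, 2062 and 2164 CPM in KO. KO 1 and KO 3 lay above WT 3, and the log2 fold change of -0.10 ± 0.05 did not pass (adjusted p = 0.147).

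The members differed widely in level. On a scale of CPM per kilobase of annotated exon, the highest WT mean was that of Prdx1 at 1096, followed by Sqstm1 at 679, Gpx1 at 597 and Txn1 at 384. The lowest WT means among tested members were those of Gss at 3.70, Keap1 at 8.57 and Gstp1 at 8.83 on the same scale. In KO the mean of Prdx1 was 657 and that of Sqstm1 632, so the gap between the first 2 in the order was narrower than in WT. Gsta3 went from 10.8 to 2.27 CPM per kilobase and was the lowest tested member in KO. Exon length was the union over all annotated transcripts, so levels of genes with long alternative ends are understated.

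**Figure D5:**
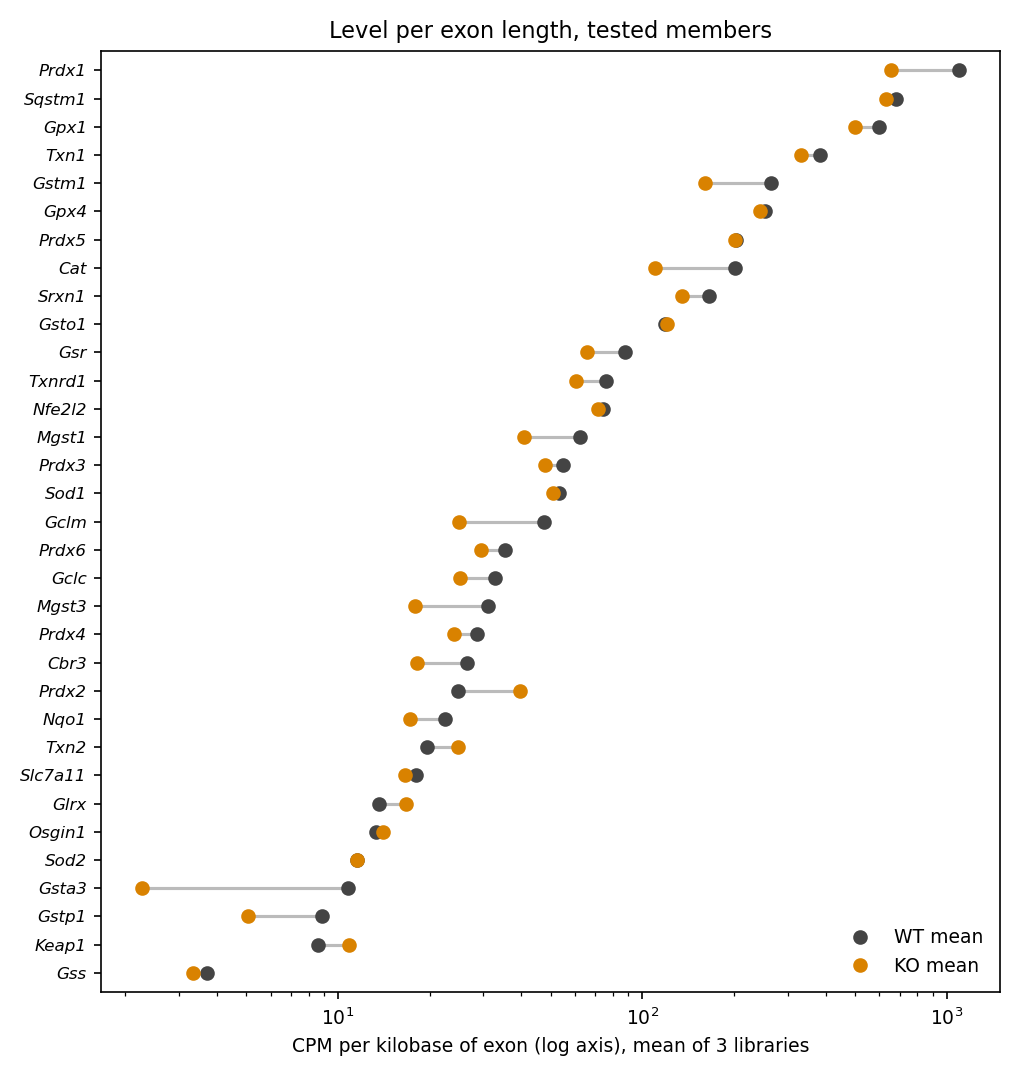
Mean CPM per kilobase of exon (horizontal log axis) of the 33 tested members in WT (dark grey) and KO (orange), ordered by the WT mean. Most KO points lie left of the WT point, Gsta3 with the longest line, while those of the called genes Prdx2, Txn2, Glrx and Keap1 lie to the right.

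The promoters of all members with a RefSeq window were searched for the letters of the antioxidant response element, TGACNNNGC, and of the hypoxia response element, ACGTG or GCGTG, on both strands. The windows were 300 bases, from 250 before to 50 after each RefSeq gene start (GRCm38.p6), and 30 of the 34 members had at least 1, giving 38 windows. The antioxidant letters stood in 6 of 18 windows of members called lower, 0 of 5 of members called higher and 2 of 15 of members not called. Windows are not separate genes. Glrx, Gpx4, Gstm1, Mgst1 and Txnrd1 had more than 1 each, and windows of Glrx, Gpx4 and Gstm1 overlap. They stood in 14.5% of windows of all tested genes and in 17.1% of those of all genes called lower. The hypoxia letters stood in 11 of 18 windows of members called lower, which is 61.1%, and in 61.2% of those of all tested genes. The antioxidant match of Sod1 overlaps a hypoxia match, and hypoxia matches overlap each other in Prdx4 and Prdx5. The members called lower with antioxidant letters were Prdx1 (GCTGAGTCA), Gclm (GCACCGTCA), Gsta3 (TGACATTGC), Mgst1 (GCACGGTCA), Txnrd1 (GCTTTGTCA) and Srxn1 (GCTAGGTCA), each written as read on the gene's strand. The lines below give the 250 bases before the start for the lower members with the most reads (Prdx1), with the ligase subunit (Gclm) and with the highest fold (Gsta3), and for Prdx2, the member that rose most. Capitals mark matches to either motif.
Prdx1 promoter, chr4:116685349-116685598, plus strand: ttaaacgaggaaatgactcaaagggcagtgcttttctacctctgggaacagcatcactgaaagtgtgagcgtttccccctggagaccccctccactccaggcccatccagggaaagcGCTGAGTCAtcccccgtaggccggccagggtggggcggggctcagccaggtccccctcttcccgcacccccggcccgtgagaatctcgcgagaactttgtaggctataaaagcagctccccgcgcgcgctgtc
Gclm promoter, chr3:122245307-122245556, plus strand: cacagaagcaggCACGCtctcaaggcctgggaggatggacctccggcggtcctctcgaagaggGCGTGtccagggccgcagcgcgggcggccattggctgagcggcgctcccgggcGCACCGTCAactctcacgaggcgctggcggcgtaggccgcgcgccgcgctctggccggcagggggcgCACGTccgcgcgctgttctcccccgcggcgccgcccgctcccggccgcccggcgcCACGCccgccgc
Gsta3 promoter, chr1:21240335-21240584, plus strand: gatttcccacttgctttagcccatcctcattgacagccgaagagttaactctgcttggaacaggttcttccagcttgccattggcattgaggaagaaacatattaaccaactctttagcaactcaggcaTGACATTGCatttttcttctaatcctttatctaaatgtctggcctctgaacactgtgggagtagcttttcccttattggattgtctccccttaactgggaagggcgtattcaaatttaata
Prdx2 promoter, chr8:84969372-84969621, plus strand: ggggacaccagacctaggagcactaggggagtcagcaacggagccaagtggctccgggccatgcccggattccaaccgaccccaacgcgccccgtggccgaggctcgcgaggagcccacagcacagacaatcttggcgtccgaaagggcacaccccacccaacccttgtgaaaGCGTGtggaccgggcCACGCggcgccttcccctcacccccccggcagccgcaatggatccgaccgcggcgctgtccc

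In Prdx1 the antioxidant match began at position -133 from the gene start, in Gclm at -134 and in Gsta3 at -121. The Gclm window held 4 matches to the hypoxia letters and the 250 bases printed for Prdx2 held 2, with a further match after its start, whereas the Prdx1 and Gsta3 windows held 0. A match is a description of letters, not a measured binding site.

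Further genes of the pathway were taken from lists written with earlier results of these data known. Among 25 other NRF2 targets and partners, all tested, 14 fell and 3 rose, which is 56.0% lower and 12.0% higher. Over all genes 12.0% were lower and 13.8% higher. The median log2 fold change of this list was -0.20. Without KO 3, 9 of the list fell and 1 rose, and without WT 1, 10 fell and 1 rose. Over all genes 945 were lower and 1182 higher without KO 3, and 1027 and 1336 without WT 1, against 1586 and 1826. Hmox1, encoding the haem-degrading heme oxygenase 1, went from 1614 ± 58.1 to 1180 ± 198 CPM (SD), a log2 fold change of -0.45 ± 0.09 (adjusted p = 0.00253). Pgd, for the NADPH-producing 6-phosphogluconate dehydrogenase, fell from 1454 ± 31.2 to 1045 ± 22.4 CPM (-0.48 ± 0.05, adjusted p = 8.57e-06). Idh1, another source of cytosolic NADPH, fell from 378 ± 12.3 to 295 ± 3.74 CPM (-0.36 ± 0.06, adjusted p = 0.000802). G6pdx, for glucose-6-phosphate dehydrogenase, which also makes NADPH, rose from 259 ± 4.75 to 299 ± 3.21 CPM (0.21 ± 0.06, adjusted p = 0.0197). The other risers of this list, named with G6pdx after their values were seen, were the transcription factor genes Mafk (0.33 ± 0.08, adjusted p = 0.00687) and Nfe2l1 (0.22 ± 0.07, adjusted p = 0.0327). Of the other Maf genes in the list, looked up in the same way, Mafg fell (-0.18 ± 0.06, adjusted p = 0.0327). Maff was not called (-0.01 ± 0.13, adjusted p = 0.974). Blvrb, for a biliverdin reductase, and Esd, for an esterase that splits S-formylglutathione, fell by -0.45 ± 0.07 and -0.44 ± 0.06 in log2 (adjusted p = 0.000273 and 7.63e-05).

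The other genes of thiol and peroxide defence, outside the members, went both ways. Of 41 tested among 45 listed, 7 fell and 8 rose, which is 17.1% and 19.5%, against 12.0% and 13.8% over all genes. Their median log2 fold change was -0.05, against -0.01 over all tested genes. The number that rose was 4 without WT 1 or KO 3 and 5 without WT 2. Over all genes the number higher went from 1826 to 1336 without WT 1, 1182 without KO 3 and 1333 without WT 2. Gpx3, for the secreted glutathione peroxidase, fell 1.75-fold from a WT level of 36.7 ± 5.19 CPM (SD; log2 fold change -0.80 ± 0.10, adjusted p = 7.85e-05). Gstm2, another mu class transferase, fell by 1.27 in log2 from a low level of 7.61 ± 1.18 CPM (adjusted p = 8.57e-05). Txnip, whose product binds and inhibits thioredoxin, fell from 568 ± 20.7 to 428 ± 7.04 CPM (-0.41 ± 0.06, adjusted p = 0.000202). Msrb3, for a methionine sulfoxide reductase, rose from 6.67 ± 0.711 to 11.8 ± 1.97 CPM (0.82 ± 0.15, adjusted p = 0.00115).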

How the data were processed

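The authors deposited raw read counts per gene symbol for 3 WT and 3 KO libraries. Per the submitters' processing notes the build was mm10 and HTSeq, TopHat2, HISAT, HISAT2, DESeq2 and SAMtools are named without version or role. Annotation, strand setting and handling of multi-mapped reads: not given in the sources used here. Where a symbol was repeated (23 symbols), the row with most reads kept it. Rows were filtered with filterByExpr at a minimum count of 10, which left 13249, scaled by TMM and tested with the quasi-likelihood test of edgeR 4.0.16 (R 4.3.3) on genotype alone, with Benjamini-Hochberg adjustment over all rows tested. The SE is the log2 fold change divided by the square root of F. Depth was 14668641 to 17884160 reads, with a common biological coefficient of variation of 8.48%. Positions, exon lengths and overlaps come from GENCODE M21, and similar transcripts from blastn at 95% identity over at least 100 bases. Counts of no pair of replicates agreed within sampling noise (chi-square per degree of freedom at least 4.1). Members, branches, lists and the naming rule (all members; of each other list up to 4 called genes by lowest p, and Hmox1) were chosen with earlier results of these data known. Alternatives were DESeq2 size factors, library size only, other filters, DESeq2 1.42.0, limma-voom 3.58.1, a robust fit, a replicate block and left-out libraries, and, chosen after seeing the data, an offset for GC content and length.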

Additional observations from a re-analysis of the deposited data

How the results depend on the processing

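Of the 21 called members, 19 kept their call and direction in all 16 alternative fits. The exceptions were Prdx3, which lost it in 9 fits with log2 fold changes from -0.22 to -0.11, and Prdx4, which lost it without WT 2 at -0.22. Members called higher numbered 4 in each fit, and members called lower 15 to 19. Members called only in some alternatives were Txn1 (7 fits), Gstp1 (with no low-count filter, at -0.81, and without WT 3, at -1.26) and Sqstm1 (with the GC and length offset, at -0.15). Differences near 0 turned sign. The Sod2 log2 fold change was 0.0013 with DESeq2 size factors, 0.0331 with library size only, 0.0116 with no low-count filter, 0.0084 with the DESeq2 Wald test, 0.0005 with the GC and length offset and -0.0567 to 0.029 with 1 library left out. The Prdx5 log2 fold change was 0.0297 with library size only, 0.008 with no low-count filter, 0.0045 with the DESeq2 Wald test, 0.0063 without WT 2 and KO 1 and -0.0587 to 0.0457 with 1 library left out. The Gsto1 log2 fold change was -0.0175 without KO 1 and otherwise up to 0.0708 with 1 library left out. The cause was not tested.

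Over all genes, leaving out 1 library gave 1182 to 1992 higher and 945 to 1622 lower. The share of calls that were higher was 53.5%, 62.3% with library size only and 49.7% with the GC and length offset. Among the other genes of thiol and peroxide defence, 5 rose with the DESeq2 Wald test, 5 without WT 2 and KO 1 and 4 to 8 with 1 library left out. Among the other NRF2 targets and partners, 1 to 3 rose and 9 to 14 fell with 1 library left out. Of the superoxide and nitric oxide sources, 3 rose with library size only, 3 with limma-voom, 1 without WT 2 and KO 1, 1 with the GC and length offset and 1 to 2 with 1 library left out. Same-numbered libraries did not deviate together (r = 0.01, -0.11 and 0.08). The labels do not say whether the numbers pair the libraries, and these values cannot exclude a pairing with little shared deviation. With the number as a block (replicate block) 1741 genes were higher and 1506 lower, and the members again numbered 4 and 17.

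At this depth Gsta4 could not be tested. The wide error of Gstp1 came with WT libraries of 417, 199 and 51 reads, and its cause was not tested.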

Other observations

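Genes whose products make superoxide, peroxide or nitric oxide were listed beside the defence genes. Of 18 with a row, 11 were tested, 2 rose and 2 fell (18.2% each, against 13.8% higher and 12.0% lower over all genes), with a median log2 fold change of 0.03. The phagocyte NADPH oxidase genes Cybb, Cyba, Ncf1 and Ncf4, chosen after seeing the values, were not called. Cybb, encoding the catalytic subunit, averaged 992 ± 28.1 CPM in WT against 923 ± 130 CPM in KO (SD, n = 3 each; edgeR adjusted p = 0.389), and Ncf1, for the organising subunit p47phox, had 495 ± 3.47 and 545 ± 5.93 CPM (edgeR adjusted p = 0.0896).

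Ero1l, for the endoplasmic reticulum oxidase that makes peroxide as it forms disulfides, fell from 606 ± 8.91 to 258 ± 17.5 CPM (SD; -1.23 ± 0.07, edgeR adjusted p = 2.05e-08). Maoa, for the mitochondrial monoamine oxidase A, fell from 49.9 ± 5.87 to 29.9 ± 0.132 CPM (SD; log2 fold change -0.74 ± 0.09, edgeR adjusted p = 3.23e-05). Xdh, for xanthine dehydrogenase, rose from 137 ± 7.76 to 203 ± 13.3 CPM (0.57 ± 0.07, edgeR adjusted p = 4.23e-05). Nos2, for inducible nitric oxide synthase, had 12.7 ± 1.59 and 16.7 ± 2.62 CPM (0.38 ± 0.13, edgeR adjusted p = 0.0424). It did not pass without WT 2 (0.36), WT 3 (0.32), KO 1 (0.25) or KO 3 (0.45), without WT 2 and KO 1 (0.22), with the DESeq2 Wald test (0.39) or with the GC and length offset (0.32), and over all alternatives its adjusted p reached 0.28.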
